A study of Mus musculus with 24 samples.

Results

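The 55 genes described here encode the translation initiation factors (symbols beginning Eif1 to Eif6) and elongation factors (Eef1 and Eef2) of the mouse, together with enzymes named after an elongation factor. They were chosen by symbol alone, out of 19938 genes named by a single symbol on the array. The eIF2-alpha kinases, Eif2s3x, Eif2s3y and pseudogene entries were left out by the same rule. Of the 55 genes, 51 were bright enough to be tested, and the dim Eef1akmt2, Eef1akmt3, Eif2b2 and Eif5a2 were not. Eif2s1 and Eif4g1, the alpha subunit of eIF2 and the main eIF4G scaffold, were not analysed here because no probe set named either of them alone.

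Gene expression had been measured in blastocysts, the embryos of day 3.5 after mating, in which an outer trophectoderm encloses an inner cell mass. From an age of 3 weeks, outbred NMRI mice (RjHan:NMRI) were kept for 9 weeks on a modified D12492 high-fat diet or on its control diet. They were paired at 12 weeks of age, and all ate control diet during mating. The 6 groups had lean parents (both on control diet), an obese father with a lean mother, or an obese mother with a lean father, each as male (XY) and female (XX) embryos. Each group held 4 arrays, 24 in all, and each array held the pooled lysate of 3 embryos of the same sex from the same mother. The labels name 7 animals on the high-fat and 14 on the control diet and do not tie pools to animals. Pools of the same mother or father may therefore stand in the same group or in several, and p-values measure the spread between pools. In such pools, fewer cells of a type and less RNA per cell cannot be told apart. The study concerns effects of parental obesity on gene expression before implantation and whether these depend on the sex of the embryo.

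Translation begins when a small ribosomal subunit carrying eIF1, eIF1A, eIF3, eIF5 and the eIF2 complex with initiator tRNA is recruited to the capped end of an mRNA. The cap is bound by eIF4E, on the scaffold eIF4G and beside the helicase eIF4A, and eIF4E-binding proteins block that contact. After the start codon is found, eIF5B joins the large subunit, and the elongation factors eEF1A and eEF2 then deliver aminoacyl-tRNA and move the ribosome along. The blastocyst multiplies its cells and prepares to implant, and it depends on transcripts made by its own genome for this machinery.

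Several mRNAs of this machinery begin with a terminal oligopyrimidine tract, a C followed by an unbroken run of C and T at the very start of the transcript, through which TOR signalling and the protein Larp1 control their translation. The windows below run from 10 bases before the annotated transcript start to 20 bases from it on, 5′ to 3′ on the coding strand, and come from RefSeq promoters of GRCm38.p6. They are shown because these members span the elongation, eIF3, exchange-factor and scanning roles and differ in the runs of C and T in the window. Capitals mark the longest run of a C followed by at least 4 further C or T letters, where the window holds one. A run that reaches the edge of the window may extend beyond it. Positions are chr9:78481705-78481734 (minus strand) for Eef1a1, chr10:81176621-81176650 (plus) for Eef2, chr7:108934405-108934434 (plus) for Eif3f, chr15:79075213-79075242 (plus) for Eif3l, chr16:20498807-20498836 (plus) for Eif2b5, chrX:159372168-159372197 (plus) for Eif1ax and chr7:126566347-126566376 (minus) for Eif3c.
Eef1a1: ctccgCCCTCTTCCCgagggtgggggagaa
Eef2: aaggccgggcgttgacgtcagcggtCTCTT
Eif3f: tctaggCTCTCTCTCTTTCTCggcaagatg
Eif3l: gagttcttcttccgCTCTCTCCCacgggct
Eif2b5: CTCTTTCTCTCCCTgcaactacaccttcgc
Eif1ax: ggaggagggcggggagaagccccgcccgct
Eif3c: ctgctcagagggactcggcagcttagctgg

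The run in Eef1a1, the factor that brings aminoacyl-tRNA to the ribosome, has 10 letters, that in the eIF3 subunit gene Eif3f 15, and the windows of Eif1ax and Eif3c have none. Promoters were found for 42 of the 55 members, with 56 annotated starts. A run of at least 5 letters lay in 33.9% of these starts and in 35.8% of all 32851 starts of the table. A run of at least 8 letters lay in 16.1% (9 starts, several of them of Eif4enif1) and 8.68%. Counted by gene, 7 of 42 members and 2728 of all 27025 genes held a run of at least 8 letters. The letters CTTTC on the coding strand stood in 7.14% of the member windows and 3.74% of all windows, and their reverse complement GAAAG in 3.57% and 3.65%. A match is a description of these letters, not of a functional tract.

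All levels are log2 intensities, so that a difference of 1 is a 2-fold change, and the number of arrays limits their precision. Array means lay between 2.82 and 2.86, but the standard deviation of all values on an array, called the array spread here, ran from 1.27 on lean-parent male array 4 to 1.81 on obese-father female array 22. The deposited RMA values thus had unequal spreads. As a check of the blastocyst label, all 6 trophectoderm, 4 inner cell mass and 4 primitive endoderm markers were on the table, with means above the table median of 2.56. Of 6 cumulus cell markers 5 were on the table and 4 bright enough to test, of 4 blood markers 2 and 0, and of 4 uterine and oviduct markers 3 and 1. Means above that median were held by 3 cumulus, 0 blood and 1 uterine or oviduct marker. Amh (4.06), Foxl2 (3.82) and Inha (3.63) read within the range of lineage markers such as Gata3 (3.64) and Pdgfra (2.77). Has2 (2.39) and Fshr (2.18) read lower. The check therefore does not separate embryo from cumulus cell signal. Eif2s3y, the Y-linked copy of the eIF2 gamma subunit gene, read 2.12 ± 0.52 (SD, n = 12) on male and 1.33 ± 0.18 (n = 12) on female arrays, with 10 of the 12 male arrays above every female array. Its X-linked partner Eif2s3x read 6.02 ± 0.92 on male and 6.57 ± 1.1 on female arrays (n = 12 each). Xist read 2.13 ± 0.28 on male and 2.74 ± 0.54 on female arrays (n = 12 each). Within the obese-father groups it read 2.34 ± 0.33 in males and 2.42 ± 0.28 in females. The Y-linked Uty and Kdm5d were too dim to test. Over all arrays they averaged 1.84 and 1.76, in lean-parent males 2.08 and 1.88, and in obese-father males 1.79 and 1.52.

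The level of most members followed the array spread. The mean of the 51 tested members ran from 3.48 on lean-parent male array 4 to 5.76 on obese-father female array 22, and its correlation with the array spread over the 24 arrays was 0.986 (Pearson r; Spearman rho 0.96), and 0.974 without the 2 arrays farthest from the median. These points share their arrays, since the members are part of the values whose spread is measured, and the correlation is a description. The mean of all tested genes stayed between 3.21 and 3.34 on the same arrays. Array means lay between 2.82 and 2.86, which left that mean little room to move. The members' mean lay above the array mean on every array, and the part of this brightness in its rise was not tested. Among single members, 21 of 51 correlated above 0.8 with the array spread, against 6.57% of all tested genes, and 9 of 51 correlated below 0. Their median correlation was 0.777, against -0.418 over all tested genes. Other genes of like brightness were not compared, so whether these values are particular to translation factors was not tested.

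**Figure D1:**
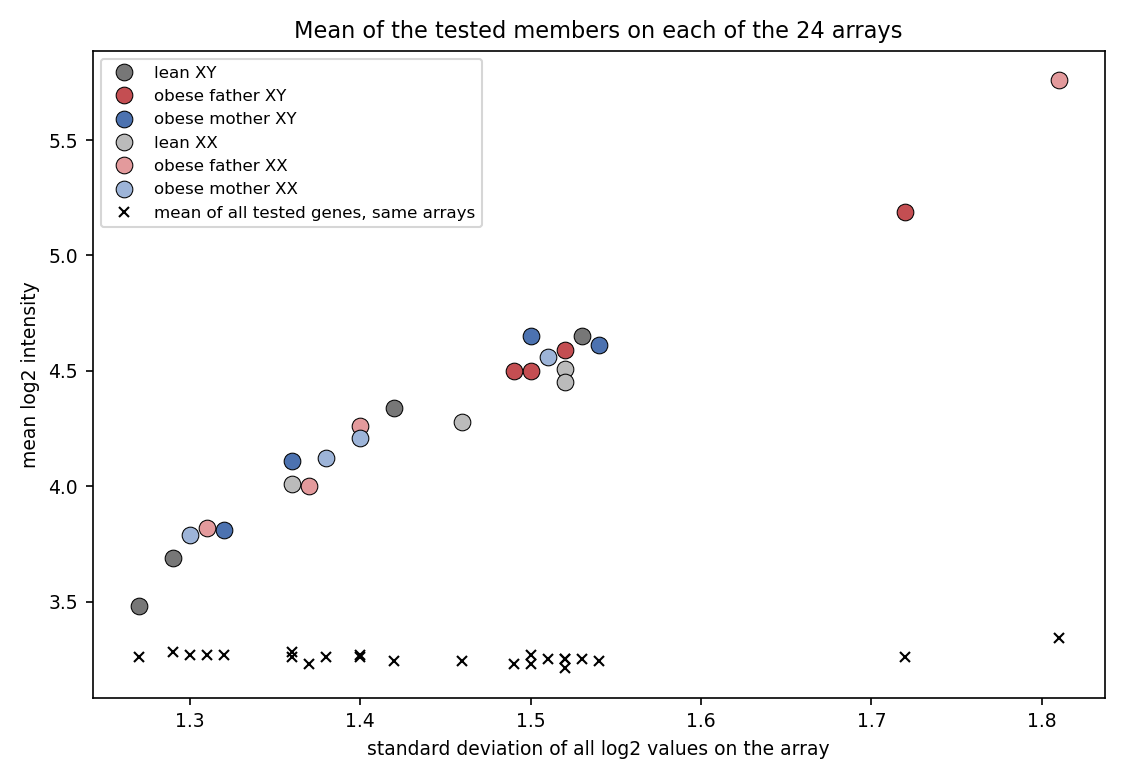
Mean log2 intensity of the 51 tested members (circles, coloured by group) and of all tested genes (crosses) on each of the 24 arrays, against the standard deviation of all log2 values on that array. The members' mean climbs from 3.48 to 5.76 with the array spread. The mean of all tested genes stays between 3.21 and 3.34, with little room to move because the array means are nearly equal.

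The correlations are given here by role. The 11 eIF3 subunits, which form the largest initiation factor complex, had correlations with the array spread between 0.511 and 0.944 (median 0.883), and the 55 pairs of them had a median correlation within groups of 0.796 (0.496 to 0.91), against 0.412 over the 1275 pairs of all tested members. Elongation factors had a median of 0.882, led by Eef2, the translocase, at 0.95. Eef1a2, the eEF1A form of muscle and neurons, was the lowest of them at 0.248. The 3 eIF4E-binding proteins lay between -0.316 and 0.297, and the 4 enzymes that modify elongation factors between -0.452 and 0.221. The ranges over the 24 arrays moved the same way, with a median range of 3.74 for eIF3 subunits and 0.88 for the modifying enzymes.

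In male embryos of obese fathers, most members read higher than in males of lean parents, and none passed the test. In the limma fit adjusted over 13311 genes, 0 of 51 members had an adjusted p under 0.05 (0.00751% of all tested genes did), and the smallest adjusted p among them was 0.316. The difference was above 0 for 45 of 51 members, against 33.3% of all tested genes, with a median of 0.39 (range -0.30 to 2.22) against -0.11. At an unadjusted p under 0.05 there were 8 members, all higher, against 4.3% of tested genes higher and 10.4% lower. In 5 members every obese-father array exceeded every lean-parent array, against 1.91% of tested genes, and in 0 members the reverse held, against 6.63%. Among the 5, the dim Eef2k was separated only within rounding, at 2.38 on the nearest array of both groups. The separation of Eif4e was lost with another of its probe sets, given below.

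The array spread moved with this comparison. It averaged 1.56 ± 0.11 (SD, n = 4) in obese-father males and 1.38 ± 0.12 (n = 4) in lean-parent males, and the members' mean was 4.70 ± 0.33 and 4.04 ± 0.55. With the array spread as a covariate, 23 of 51 members were above 0 (46.6% of all tested genes), the median was -0.04 (-0.02 over all tested genes), and 2 members were higher and 3 lower at an unadjusted p under 0.05, against 7.18% of tested genes in either direction. Lean-parent male arrays 1 and 4 had the narrowest spread of all arrays. Without both, 39 of 51 members were above 0, the median was 0.16 and 0 members had an unadjusted p under 0.05. The number of members at an unadjusted p under 0.05 was 3 without lean-parent array 1, 2 without lean-parent array 4, 18 without lean-parent array 3 and 3 without obese-father array 12, with 0 called in each of these fits.

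A fit with the first principal component of the residuals as a covariate gave another count. That component correlated at 0.884 with the array spread over the arrays. Being taken from the residuals of these same genes, it is orthogonal to the groups. It therefore leaves each difference as it was and narrows its error. The p-values do not account for this choice and are too small. A pass in this fit, here and below, is a description and not evidence of a group difference. In that fit 21 members passed, all higher, against 5.7% of all tested genes higher and 8.58% lower (1901 genes in all). The 21 members were the eIF3 genes Eif3a, Eif3c, Eif3d, Eif3e, Eif3h, Eif3i and Eif3k, the cap and helicase genes Eif4a1, Eif4a2, Eif4b, Eif4e and Eif4g2, the elongation factor genes Eef1a1, Eef1b2 and Eef2, and Eif1a, Eif1ax, Eif2s2, Eif5, Eif5a and Eif5b. This fit keeps the part of the array spread that differs between the groups inside the group difference, and the 2 covariates gave 21 and 0 called members.

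**Figure D2:**
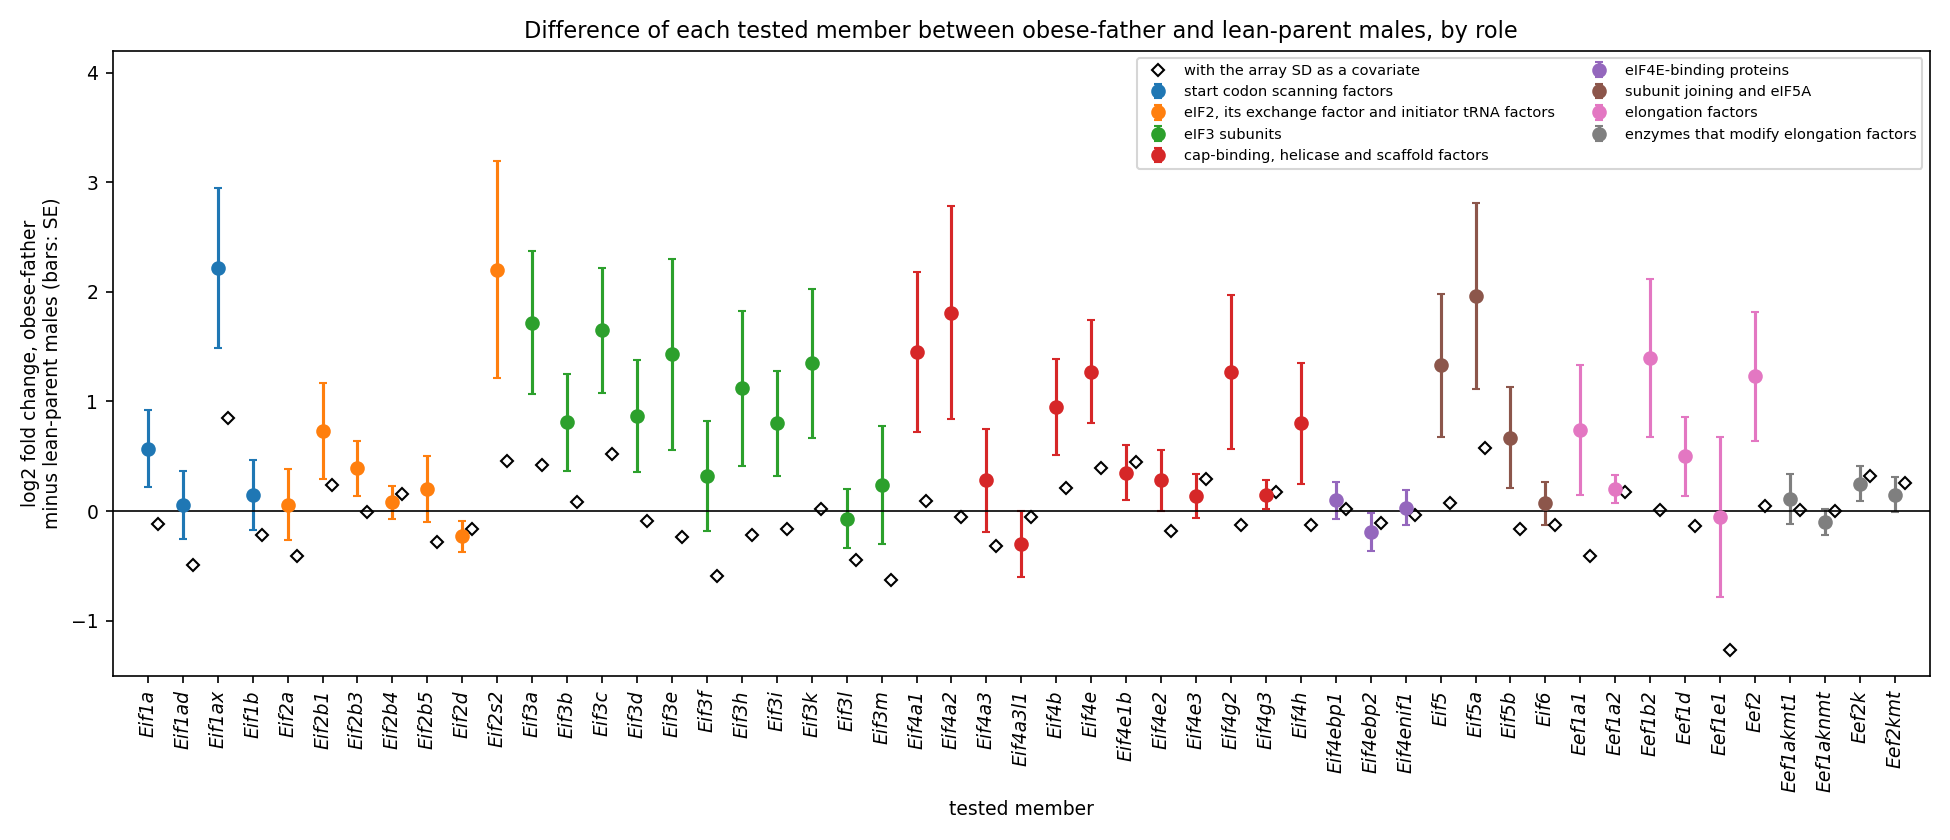
Log2 fold change of each of the 51 tested members between obese-father and lean-parent males (filled circles, coloured by role; bars are standard errors) and the same difference with the array spread as a covariate (open diamonds). 45 circles lie above 0, from -0.30 to 2.22 in all, while 23 diamonds lie above 0.

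Among the genes grouped here as factors that scan for the start codon, Eif1ax had the largest difference. Eif1ax, the X-linked gene of eIF1A, read 4.76, 5.40, 6.66 and 2.86 on lean-parent male arrays 1 to 4, and 6.33, 7.11, 6.99 and 8.14 on obese-father male arrays 9 to 12. Array 4 was far below the other lean-parent arrays, and array 3 overlapped the lowest obese-father array. The means were 7.14 ± 0.75 and 4.92 ± 1.58 (SD, n = 4 each). The difference was 2.22 (SE 0.73; limma adjusted p = 0.316, unadjusted 0.00585), and 0.85 with the array spread as a covariate. All 4 tested genes of this group (Eif1a, Eif1ad, Eif1ax and Eif1b) were above 0, with a median of 0.36. The lowest value, 0.06, was that of Eif1ad, a gene named after eIF1A whose part in scanning these data do not show.

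Of the eIF2 group, which holds eIF2, its exchange factor eIF2B and proteins that bring initiator tRNA, 6 of 7 were above 0, with a median of 0.20. Eif2s2, the beta subunit of eIF2, read 5.32, 8.25, 8.96 and 3.20 on lean-parent male arrays 1 to 4, and 8.14, 8.79, 8.48 and 9.11 on obese-father arrays 9 to 12. Lean-parent arrays 2 and 3 lay within the obese-father range, and arrays 1 and 4 lay far below it. The difference of 2.20 (SE 0.99; limma adjusted p = 0.325, unadjusted 0.0365) was 0.03 without arrays 1 and 4. Eif2d, an alternative tRNA delivery factor, was lower by value, at 3.29 ± 0.25 against 3.52 ± 0.14 (n = 4 each; log2 fold change -0.23, SE 0.14).

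Of the 11 tested eIF3 subunits, 10 were above 0, with a median of 0.87. Eif3c, a core subunit, read 3.63, 5.16, 4.95 and 3.80 on lean-parent male arrays 1 to 4 and 5.69, 5.97, 5.56 and 6.92 on obese-father arrays 9 to 12, so the groups did not overlap. The means were 6.04 ± 0.61 and 4.39 ± 0.78 (n = 4 each), a difference of 1.65 (SE 0.57), with a limma adjusted p of 0.316. Eif3a, the largest subunit, read 4.23, 5.49, 6.61 and 3.83 on lean-parent arrays and 6.24, 6.57, 6.56 and 7.68 on obese-father arrays. Lean-parent array 3 was inside the obese-father range, and the difference was 1.72 (SE 0.65; adjusted p = 0.316 in limma). With the array spread as a covariate these differences were 0.52 for Eif3c and 0.42 for Eif3a. Eif3l, a subunit at the edge of the complex, was the one eIF3 gene below 0, at -0.07 (SE 0.27).

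Of the 12 cap-binding, helicase and scaffold factors, 11 were above 0, with a median of 0.57. Eif4e, the cap-binding protein, read 4.00, 5.11, 4.88 and 3.52 on lean-parent male arrays and 5.49, 5.85, 5.31 and 5.94 on obese-father arrays. With this probe set the groups did not overlap. Its difference was 1.27 (SE 0.47; limma adjusted p = 0.316, unadjusted 0.0127). Eif4b, which stimulates the helicase, read 3.73, 4.38, 4.62 and 3.6 against 5.13, 4.73, 4.79 and 5.46, again without overlap, a difference of 0.95 (SE 0.44; limma adjusted p = 0.33). Eif4a1, the helicase itself, differed by 1.45 (SE 0.73; adjusted p = 0.347) and by 0.01 without lean-parent arrays 1 and 4. Eif4a3l1, a gene named as a relative of the exon junction helicase Eif4a3, was the one member of this role below 0, at -0.30 (SE 0.30). It read 3.55, 2, 1.70 and 3.13 on lean-parent arrays 1 to 4, highest on arrays 1 and 4, and its difference was 0.44 without arrays 1 and 4.

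The eIF4E-binding proteins differed little by value. Eif4ebp1, the TOR-regulated repressor of eIF4E, read 3.06, 3.03, 2.90 and 2.98 on lean-parent male arrays and 3.61, 2.60, 2.83 and 3.31 on obese-father arrays, which lay on both sides of the lean-parent values. Its difference was 0.10 (95% confidence interval -0.25 to 0.45; limma adjusted p = 0.764). Eif4ebp2 was at -0.19 (SE 0.17) and the median of the 3 genes was 0.03.

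All 4 tested genes of subunit joining and eIF5A were above 0, with a median of 1. Eif5a, whose product helps ribosomes past difficult peptide bonds and carries the amino acid hypusine, read 3.61, 6, 6.64 and 3.48 on lean-parent male arrays and 6.93, 5.97, 6.31 and 8.35 on obese-father arrays. Lean-parent arrays 1 and 4 lay more than 2 units below the others, and the difference was 1.96 (SE 0.85; limma adjusted p = 0.319, unadjusted 0.0308). Eif5, the GTPase activator of eIF2, differed by 1.33 (SE 0.65) and Eif5b, the subunit-joining GTPase, by 0.67 (SE 0.46). Eif6, which keeps the large subunit from joining too early, read 4.56, 4.72, 4.85 and 4.61 against 4.88, 4.69, 4.46 and 5. These groups overlapped, and the difference of 0.07 had a 95% confidence interval of -0.33 to 0.48.

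Of the 6 elongation factors, 5 were above 0, with a median of 0.62. Eef2 read 4.81, 6, 5.64 and 4.65 on lean-parent male arrays and 5.95, 6.10, 6 and 7.95 on obese-father arrays, of which array 12 was well above the rest. Its difference was 1.23 (SE 0.59; limma adjusted p = 0.338, unadjusted 0.049), 0.05 with the array spread as a covariate and 0.75 without the 2 arrays of widest spread. Eef1a1 read 7.89, 9.38, 9.69 and 8.52 against 9.23, 9.60, 9.48 and 10.16, a difference of 0.74 (SE 0.59) that became -0.41 with the covariate. Eef1e1, a scaffold protein of the aminoacyl-tRNA synthetase complex, was at -0.05 (SE 0.73). Of the modifying enzymes, 3 of 4 were above 0, and Eef1aknmt, a methyltransferase of eEF1A, was at -0.10 (SE 0.12).

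**Figure D3:**
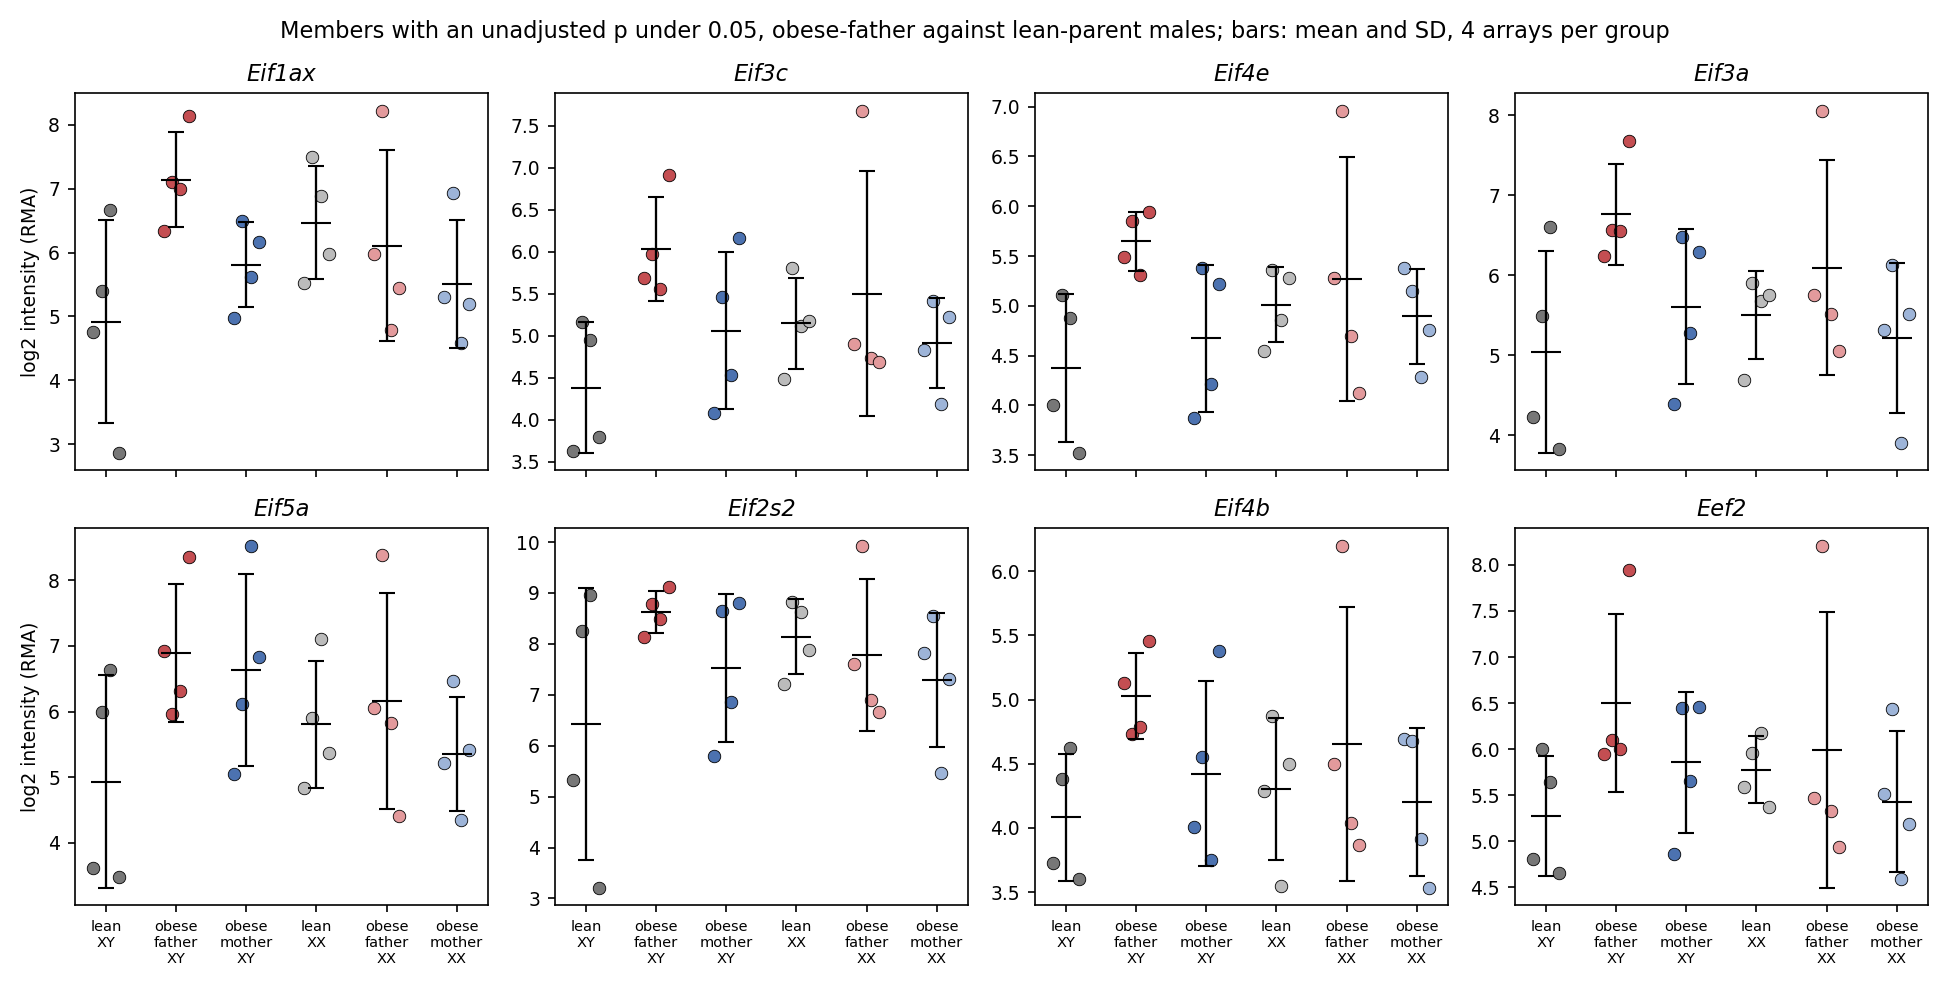
Log2 intensity of the 8 members with an unadjusted p under 0.05 between obese-father and lean-parent males, on every array of the 6 groups (points), with the group mean and SD (bars, n = 4). In lean-parent males the arrays split into a higher and a lower pair in several panels, and in each panel array 22 is the highest of the obese-father females.

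Different probe sets of the same gene did not always agree, and 3 of these 8 members depended on which was read. Of the 55 members, 8 had several probe sets, and the brightest was used. The numbers of the probe sets run by genome position. For genes with 1 probe set, the gene's chromosome was the commonest chromosome among the 20 nearest numbered sets in 99.8% of 18863 cases. The brightest sets of Eif2s2, Eif4e, Eif5a and Eif3m were numbered among sets of chromosomes 8, X, 5 and 1, whereas the genes lie on chromosomes 2, 3, 11 and 2. The used set of Eif4enif1, a carrier of eIF4E on chromosome 11, stood where 10 of 20 neighbours were on chromosome 10. What these sets hybridise with beside the named gene was not tested.

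Sets numbered within the gene's own chromosome gave smaller values for Eif4e and Eif5a. For Eif5a that set read 5.10, 4.76, 5.84 and 5.2 on lean-parent male arrays and 5.51, 5.48, 5.59 and 5.71 on obese-father arrays, with a difference of 0.35 (SE 0.21; limma adjusted p = 0.397, unadjusted 0.115) in place of 1.96. The groups overlapped with either set, and the SD over all 24 arrays was 0.31, against 1.35 for the used set. For Eif4e the brighter of the 2 sets on its own chromosome gave 0.61 (SE 0.35; limma adjusted p = 0.376, unadjusted 0.0953) and the other -0.15, in place of 1.27. With that brighter set the groups overlapped, at 4.15 on lean-parent array 3 and 3.3 on obese-father array 10. For Eif2s2 the value was 1.89 (SE 0.97; limma adjusted p = 0.348, unadjusted 0.0638) in place of 2.20. Eif4a1, whose used set was numbered within its own chromosome 11, gave 1.45, 1.52 and 1.61 with its 3 sets. With the own-chromosome sets, 5 members in place of 8 had an unadjusted p under 0.05, and the members' median was 0.38.

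**Figure D4:**
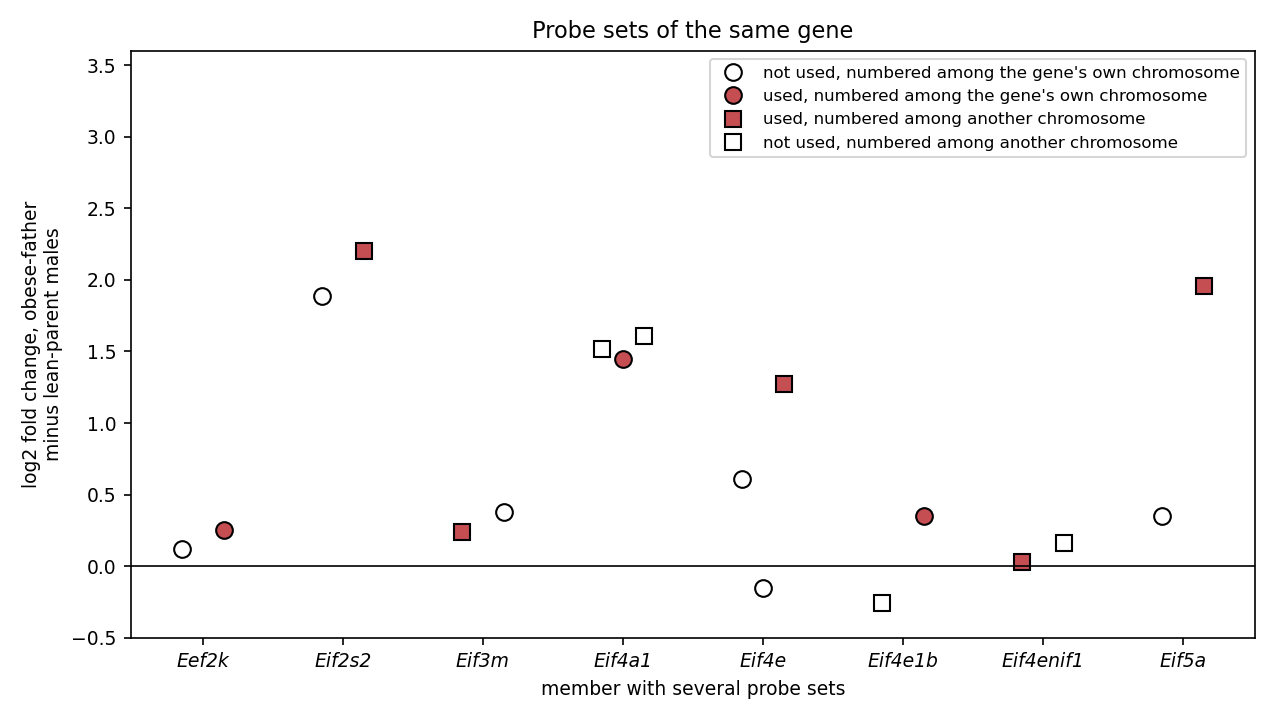
Log2 fold change between obese-father and lean-parent males for each probe set of the 8 members with several sets (filled: used; open: not used; circles: numbered among sets of the gene's own chromosome; squares: among sets of another chromosome). The sets of Eif4a1 lie between 1.45 and 1.61, while those of Eif5a lie at 0.35 and 1.96 and those of Eif4e between -0.15 and 1.27.

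Members with a long pyrimidine run, as counted inside the window, had no larger median difference than those without. In the 6 tested members with a run of at least 8 letters (Eef1a1, Eif2b5, Eif3f, Eif3l, Eif4e and Eif4enif1), the median difference between obese-father and lean-parent males was 0.26 (-0.07 to 1.27), and 5 of 6 were above 0. In the 33 tested members with a promoter and no such run, the median was 0.67 and 28 were above 0. Runs were counted anywhere in the window and were cut at its edges. Those of Eef2 (5 letters) and Eif3k (7 letters) reached the last base, so their full length was not read. Both genes stood among the members without such a run, with differences of 1.23 and 1.35. The run of Eif4e, of 8 letters, opened 10 bases before the annotated start and ended before it, and that of Eif3l opened 4 bases after it. The split therefore does not compare mRNAs with and without a tract at their very start. These values are a description and were not tested.

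Other genes of the pathway were read in the same comparison, and none of them passed the test over all genes. Of 11 tested genes of TOR signalling to translation, 3 were above 0, with 1 higher (4.3% of all tested genes) and 2 lower (10.4%) at an unadjusted p under 0.05. The higher one was Rps6, a protein of the small ribosomal subunit phosphorylated through TOR signalling, at 1.64 (SE 0.68; limma adjusted p = 0.316, unadjusted 0.0256). Akt1s1, an inhibitor of TOR complex 1, was at -0.46 (SE 0.17) and Mtor, the kinase, at -0.34 (SE 0.14), each with a limma adjusted p of 0.316. The 6 tested genes of the eIF2-alpha stress response were Eif2ak1, an eIF2-alpha kinase, Gcn1, an activator of another such kinase, the stress-induced transcription factors Atf4 and Ddit3, and Ppp1r15a and Ppp1r15b. They had a median of -0.02 and 0 genes at an unadjusted p under 0.05. Ppp1r15a and Ppp1r15b, the targeting subunits of the eIF2-alpha phosphatase, were at -0.30 and -0.27.

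Of 10 cap and poly(A) regulators, 9 were above 0 with a median of 0.57, among them Pabpc1, the poly(A)-binding protein, at 1.30 (SE 0.54), and Ncbp2, of the nuclear cap-binding complex, at 1.09 (SE 0.43). Of 9 termination, recycling and rescue genes, 7 were above 0 with a median of 0.98. Ltn1, the ubiquitin ligase of stalled ribosomes, read 4.21 ± 1.22 against 2.32 ± 0.23 (n = 4 each), a difference of 1.89 (SE 0.47; limma adjusted p = 0.316, unadjusted 0.000632). Mcts1, a re-initiation factor, was at 0.62. Among 6 hypusine and diphthamide enzymes, Dohh, which completes hypusine on eIF5A, was at -0.59 (SE 0.19; limma adjusted p = 0.316, unadjusted 0.00481) and Dph5, of the diphthamide pathway of eEF2, at 0.94 (SE 0.36). The 6 mitochondrial translation factors had a median of 0.13, with Mrrf at 0.37 and Tsfm at -0.30.

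Marker genes of embryo lineages and of carried-over cells were read in the same comparison, and 0 of them passed in limma (0.00751% of all tested genes did). At an unadjusted p under 0.05, 1 trophectoderm and 1 inner cell mass marker were higher (4.3% of tested genes) and 1 cumulus cell marker lower (10.4%). Of all tested genes 33.3% were above 0. Of 6 trophectoderm markers 5, of 4 inner cell mass markers 3 and of 4 primitive endoderm markers 3 were above 0, with medians of 0.34, 0.30 and 0.24. The mean log2 level of the trophectoderm list on each array ran from 4.53 to 5.34 in lean-parent males and from 4.94 to 5.78 in obese-father males. All 4 tested cumulus cell markers were below 0 (median -0.33), and the mean of that list ran from 3.09 to 3.62 in lean-parent males and from 2.83 to 3.12 in obese-father males. The part of these cells in the members' difference was not tested.

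Female embryos of obese fathers were compared with those of lean parents. In limma 0 of 51 members passed (0% of all tested genes did), 37 were above 0 (54.9% of all tested genes), and the median was 0.12 against 0.02. At an unadjusted p under 0.05, 1 member was higher (1.95% of tested genes) and 1 lower (0.886%). Eif3l was higher by value, at 3.99 ± 0.86 against 3.33 ± 0.27 (n = 4 each). Its obese-father female arrays read 3.90, 5.23, 3.51 and 3.32, of which array 22 was the highest, and the difference was 0.66 (SE 0.27; limma adjusted p = 1, unadjusted 0.0241), or 0.25 without array 22. Eef1aknmt was at -0.31 (SE 0.12; limma adjusted p = 1, unadjusted 0.0174). Without array 22 the members' median was -0.22 and 14 of 51 were above 0.

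In male embryos of obese mothers, 0 of 51 members passed (0% of all tested genes) and 0 had an unadjusted p under 0.05 (0.601% of tested genes higher, 1.1% lower). Above 0 were 39 of 51 (46.1% of all tested genes), with a median of 0.22 against -0.01, and the median was -0.12 without lean-parent arrays 1 and 4. This comparison shares the lean-parent male arrays with that of obese fathers. Eif5a had the smallest p, with obese-mother arrays at 5.05, 6.12, 8.53 and 6.83 and array 7 far above the rest (1.70, SE 0.85; limma adjusted p = 1, unadjusted 0.058). With the set on its own chromosome the difference was 0.23 (SE 0.21). Eif1ax was at 0.89 (SE 0.73), Eif3a at 0.57 (SE 0.65) and Eef1a1 at -0.04 (SE 0.59).

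In female embryos of obese mothers, 15 of 51 members were above 0 (61.7% of all tested genes), with a median of -0.10 against 0.05. In limma 0 passed (0% of tested genes), and 0 had an unadjusted p under 0.05 (1.65% higher, 0.541% lower). The direction turned with the array spread as a covariate, where 32 of 51 were above 0 and the median was 0.12. Without obese-mother array 19 the median was 0 and 24 were above 0. Eif4a3, the helicase of the exon junction complex, read 3.87 ± 0.28 against 4.8 ± 0.64 (n = 4 each), a difference of -0.93 (SE 0.47; limma adjusted p = 0.999, unadjusted 0.0592). Eif4a3l1 alone of the 51 members had groups that did not overlap, at 2.45 ± 0.23 against 1.95 ± 0.07 (0.50, SE 0.30). That share is close to the 1.89% of tested genes separated in that direction, and both means lay below the table median of 2.56.

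Obese mothers and obese fathers were also set against each other. In males 9 of 51 members were above 0 (65.1% of all tested genes), with a median of -0.29 against 0.09, and 0 passed in limma (0.00751% of tested genes did). Eif4e was lower by value, at 4.67 ± 0.74 against 5.65 ± 0.30 (n = 4 each; -0.98, SE 0.47), and Eif4ebp2 higher, at 3.91 ± 0.17 against 3.54 ± 0.28 (0.37, SE 0.17), each with a limma adjusted p of 0.573. These were the 1 lower and 1 higher member at an unadjusted p under 0.05, against 2.08% and 6.27% of tested genes. The Eif4e value came from the set numbered among sets of chromosome X. The brighter set on its own chromosome gave -0.38 (SE 0.35; limma unadjusted p = 0.285) and the other gave 0.04. With the first residual component as a covariate 7 members passed, all lower, against 2.19% of tested genes lower and 2.33% higher. With the array spread as the covariate instead, the direction turned, with 31 of 51 above 0, a median of 0.05 and 0 passing. Without obese-father array 12 alone the median was -0.09. In females 10 of 51 were above 0 (55.5%), the median was -0.24 and 0 passed (0% of tested genes), with 1 higher (1.97%) and 1 lower (1.28%) at an unadjusted p under 0.05. Eef1aknmt was at 0.32 (SE 0.12) and Eif1b, a close relative of eIF1, at -0.70 (SE 0.32), each with a limma adjusted p of 0.975. Without array 22 Eif1b was at -0.22 and the members' median was 0.09.

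Between male and female embryos, 0 of 51 members passed with lean parents (0% of tested genes), obese fathers (0.00751%) or obese mothers (0%). With lean parents 13 of 51 were higher in males (62.6% of all tested genes; median -0.22). That direction turned without lean-parent male arrays 1 and 4, with 28 higher and a median of 0.08, and with the array spread as a covariate, with 30 higher and a median of 0.06. Eif1ax, which lies on the X chromosome, read 4.92 ± 1.58 in males and 6.47 ± 0.88 in females (n = 4 each). Its female arrays read 5.53, 7.49, 6.89 and 5.97, and the groups overlapped (-1.55, SE 0.73; limma adjusted p = 0.992, unadjusted 0.0446). The difference was -0.86 without lean-parent male array 4 and -2.13 without array 3. In the other parental groups Eif1ax was higher in males by value. It read 7.14 ± 0.75 against 6.11 ± 1.49 with obese fathers and 5.81 ± 0.66 against 5.5 ± 1 with obese mothers (n = 4 each). With obese fathers 37 were higher in males (35.3%; median 0.15), where Eif3l was at -0.57 (SE 0.27; limma adjusted p = 0.843, unadjusted 0.0474), or -0.16 without array 22. The members' median there was -0.04 with the array spread as a covariate, 0.58 without array 22 and 0.03 without array 24. With obese mothers 36 were higher in males (47.3%; median 0.10), and Eif4e1b, an oocyte relative of eIF4E, was at -0.47 (SE 0.25). The median was -0.02 without obese-mother male array 8 and 0 without obese-mother female array 19.

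The difference of the obese-father effect between the sexes was tested directly. It was above 0, meaning larger in males, for 39 of 51 members (32.6% of all tested genes), with a median of 0.28 against -0.14, and 0 passed in limma (0% of tested genes). The direction turned with the array spread as a covariate, with 17 of 51 above 0 and a median of -0.12. The median was 0.83 without obese-father female array 22, 0.18 without array 24 and 0.13 without lean-parent male arrays 1 and 4. Eif1ax had the smallest p, with an effect of 2.22 in males and -0.37 in females and a difference of 2.59 (SE 1.03; limma adjusted p = 0.654, unadjusted 0.0198). Eif3l ran the other way, at -0.07 in males and 0.66 in females (-0.73, SE 0.39), a difference of -0.32 without array 22. With the first residual component as a covariate 5 members passed, all larger in males, against 1.73% of tested genes in that direction and 0.902% in the other. For obese mothers 40 of 51 differences were above 0 (39.4%; median 0.32) and 0 passed (0%). With the array spread as a covariate, and also without lean-parent male arrays 1 and 4, 25 of 51 were above 0 and the median was -0.02. Eif5a was at 2.15 (SE 1.20) and Eif4a3l1 at -0.88 (SE 0.42). For obese mothers against obese fathers, 20 of 51 were above 0 (59.9%; median -0.09), and 0 passed (0%). The median was 0.12 with the array spread as a covariate and ran from -0.39 without array 22 to 0.11 without array 24.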

How the data were processed

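Target cDNA was amplified straight from pooled lysates (Ovation One-Direct), labelled with biotin and hybridised to Affymetrix arrays, per the labels' protocols. The authors deposited RMA values on the log2 scale, 1 per probe set and array. The submitters' processing notes also name affy. For neither tool do the sources used here give a version, nor a genome build. There were 35556 probe sets on 24 arrays. GEO's platform annotation gave 21789 sets with 1 symbol, 1621 with several and 12146 with none, and only the first were named. Of several sets for a gene, the brightest was used. Genes above the table median on at least 4 arrays were tested (13311 genes). The 6 group means were fitted to all arrays in limma 3.58.1 (R 4.3.3), and p-values were Benjamini-Hochberg adjusted over all tested genes, at 0.05. The fit was also run on simulated data whose noise was independent between genes and arrays. Those data lacked the shared array spread seen here, so the run does not bear on it.

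Members and lists were chosen with earlier results of these data known. Named were called members, those with the smallest p per side (10 for obese-father males, 4 in the other parental comparisons, 2 elsewhere), a core set (Eef1a1, Eef2, Eif1ax, Eif3a, Eif4a1, Eif4e, Eif4ebp1, Eif5a, Eif5b, Eif6) and 2 genes per related list. Members passing with the residual component, and Rps6, were named after their values were seen. Alternatives were other filters, probe set rules, priors, array weights, rescalings and covariates, the compared groups alone, and leaving out arrays. Leaving out lean-parent male arrays 1 and 4, and own-chromosome probe sets, were added after the data were seen.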

Additional observations from a re-analysis of the deposited data

Results flagged for a closer look

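Among 34 named members in 6 groups of 4 arrays (204 sets of values), 19 held an array far from the other 3, where chance gives about 1 in 20. Obese-father female array 22, the array of widest spread, was the highest of its group for Eef2 (8.21), Eif3c (7.68), Eif5b (6.98), Eef1e1 (6.81), Eif1b (5.91), Eif2a (5.78), Eif3b (5.16) and Eif2b3 (3.18). Obese-father male array 12, the next widest, stood apart as the highest for Eef2 (7.95) and Eif2b3 (3.17).

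The other outlying arrays were spread over groups. In lean-parent males they were array 1 for Eef2k, the kinase of eEF2 (lowest, 1.98), and array 4 for Eif2b4 (lowest, 2.64). In lean-parent females array 15 was the highest for Eif2b3 (2.71) and Eif2b5 (3.89). In obese-mother males array 5 stood apart for Eif1ad (2.64) and array 8 for Eif2a (4.76) and Eif4e1b (2.46). For Eif4e1b, obese-father male array 11 (2.34) and obese-mother female array 19 (3.78) also stood apart.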

How the results depend on the processing

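With the first residual component as a covariate, 21 members passed in obese-father against lean-parent males, 7 in obese-mother against obese-father males and 5 in the difference of the obese-father effect between the sexes. In the other alternatives and comparisons 0 members passed, array weights and the threshold of 0.1 included. The members' median in obese-father against lean-parent males ran from -0.04 with the array spread as a covariate to 0.53 with the filter of 12 arrays, and from 0.26 to 0.62 with 1 array left out. In all 12 comparisons the median difference moved by less than 0.57 in every alternative run. That figure is the SD between arrays of the members' median level within groups, not a spread of the difference. It exceeded the size of the main median in every comparison, the largest being 0.39, so it does not show that the medians held. The sign of the median did not hold. Leaving aside the fits without 1 array, it turned in 11 of 12 comparisons, 8 of them with the array spread as a covariate. In obese-father against lean-parent females it turned with array weights (-0.16) and without the 2 arrays of widest spread (-0.22), and in obese-mother against obese-father females it was 0.03 and 0.09 in those fits. In obese-mother against lean-parent males it was -0.12 without lean-parent arrays 1 and 4. Signs of named members turned as well. With arrays centred on their medians, the sign turned in obese-father against lean-parent males for Eif3l at 0.01 and Eef1e1 at 0.03. With quantile normalization, the sign turned in obese-father against lean-parent males for Eef1e1 at 0.02, Eef1a1 at -0.01 and Eif6 at -0.19, in obese-father against lean-parent females for Eef1a1 at 0.03, in obese-mother against lean-parent females for Eif6 at 0.09, in obese-mother against obese-father males for Eif5a at 0.20. With the array spread as a covariate, the sign turned in obese-father against lean-parent males for Eef1a1 at -0.41, Eif5b at -0.16 and Eif6 at -0.13, in obese-mother against lean-parent males for Eif5b at -0.18, in obese-mother against lean-parent females for Eef2 at 0.09, Eif3a at 0.20, Eif4e at 0.21, Eif5a at 0.07, Eif5b at 0.17 and Eif6 at 0.06, in obese-mother against obese-father males for Eef1a1 at 0.03, Eef2 at 0.18 and Eif5a at 0.71, in obese-mother against obese-father females for Eef1a1 at 0.06. Without the 2 arrays of widest spread, the sign turned in obese-father against lean-parent males for Eif3l at 0.06, Eef1e1 at 0.13 and Eif6 at -0.01, in obese-father against lean-parent females for Eef2 at -0.53, Eif3a at -0.06, Eif4a1 at -0.65, Eif4e at -0.31, Eif5a at -0.37, Eif5b at -0.20 and Eif6 at -0.05, in obese-mother against obese-father males for Eif5a at 0.22, in obese-mother against obese-father females for Eef1a1 at 0.25, Eef2 at 0.19, Eif1ax at 0.10, Eif4a1 at 0.02, Eif4e at 0.19, Eif5b at 0.06 and Eif6 at 0.04. Without lean-parent male arrays 1 and 4, the sign turned in obese-father against lean-parent males for Eif4a3l1 at 0.44 and Eif6 at -0.03, in obese-mother against lean-parent males for Eif1ax at -0.22, Eif4a3l1 at 0.37, Eif3a at -0.44, Eif4a1 at -0.97, Eif4e at -0.32 and Eif5b at -0.60, in lean-parent males against females for Eif4a3l1 at -0.10 and Eif2s2 at 0.47. With the mean of probe sets, the sign turned in obese-father against lean-parent females for Eif4e at -0.08. With own-chromosome probe sets, the sign turned in obese-father against lean-parent females for Eif4e at -0.56, in obese-mother against obese-father females for Eif4e at 0.22. With 1 array left out, signs turned for 34 named differences. In obese-father against lean-parent females these were Eef1a1 (-0.87 to 0.16), Eef2 (-0.53 to 0.56), Eif1ax (-1.07 to 0.07), Eif3a (-0.06 to 0.94), Eif4a1 (-0.65 to 0.43), Eif4e (-0.31 to 0.63), Eif4enif1 (-0.19 to 0.06), Eif5a (-0.37 to 0.95), Eif5b (-0.20 to 0.73) and Eif6 (-0.05 to 0.22). In obese-mother against obese-father females these were Eef1a1 (-0.78 to 0.25), Eef2 (-0.90 to 0.19), Eif1ax (-1.08 to 0.10), Eif4a1 (-1.06 to 0.02), Eif4e (-0.75 to 0.19), Eif5b (-0.87 to 0.06) and Eif6 (-0.23 to 0.04). In obese-mother against lean-parent males these were Eef1a1 (-0.37 to 0.32), Eif4a1 (-0.13 to 1.07), Eif4a3 (-0.62 to 0.01), Eif4ebp1 (-0.10 to 0.02) and Eif5b (-0.27 to 0.40). In obese-father against lean-parent males these were Eef1e1 (-0.47 to 0.62), Eif3l (-0.18 to 0.06), Eif4a3l1 (-0.60 to 0.02), Eif4ebp1 (-0.08 to 0.26) and Eif6 (-0.01 to 0.17). In obese-mother against lean-parent females these were Eif3a (-0.59 to 0.15), Eif4e (-0.28 to 0.08), Eif4ebp1 (-0.10 to 0.04) and Eif6 (-0.07 to 0.03). In obese-mother against obese-father males these were Eif4ebp1 (-0.30 to 0.04), Eif5a (-0.89 to 0.26) and Eif6 (-0.07 to 0.31). The cause of these turns was not tested. No paired analysis was possible because the groups share no replicate numbers. Signal near the table median limits Eif2b3, Eif4a3l1 and Eef2k, which exceeded it on 4, 6 and 8 of 24 arrays.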
